A study of Homo sapiens with 3 samples.

Results

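The integrated stress response of PANC-1 cells was described through 10 genes, the transcription factors ATF4, DDIT3 (also called CHOP) and ATF3 and the genes TRIB3, CHAC1, ASNS, PSAT1, PHGDH, SESN2 and DDIT4, which are known to be regulated by them. The 10 genes were chosen by name from a count table of 51136 genes, at a time when fold changes in the same libraries were already known, so that their values are given as a description and without a test. PANC-1 is an established human pancreatic cancer cell line, and the study sequenced it to see how gene expression changed after treatment with Ginsenoside Rg3, a ginseng saponin, or with tamoxifen (TAM), an antiestrogen that also inhibits protein kinase C. The control library came from cells whose label names no agent and no vehicle, the Rg3 library from cells given 200 μM Rg3 for 24 h, and the TAM library from cells given 50 μM TAM for 24 h. Each condition had 1 library of total RNA from this single cell line, so that differences have no check by replicates and the treatment cannot be told apart from a difference between cultures or library preparations. The doses differed between the agents, and values with Rg3 and TAM are therefore set side by side.

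In the integrated stress response, kinases that sense amino acid shortage, misfolded protein in the endoplasmic reticulum, heme shortage or double-stranded RNA phosphorylate the initiation factor eIF2. General translation then slows, while the mRNA of ATF4 is translated better because of the short open reading frames in its leader. ATF4 protein switches on genes of amino acid synthesis and uptake, and it induces CHOP and ATF3, which act with it on further targets. Much of the regulation of ATF4 itself therefore takes place in translation, which read counts do not show. Cells of pancreatic cancer are known to use this response under nutrient shortage and secretory load.

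ATF4 and its partners of the C/EBP family bind a composite element called CARE in many of these genes, so the start sites were searched for its letters. RefSeq promoter windows (GRCh38.p14, from 250 bases before to 50 bases after a start site) were found for each of the 10 genes. The letters TGATGNAA, read on both strands, occurred in windows of 3 of the 10 genes, ASNS, CHAC1 and ATF3, and in 4.46% of all 27305 genes with a window (3.62% of 35116 windows). The stretches that hold them are shown 5′ to 3′ on the strand of the gene, with 28 bases on each side in lower case and the matched letters in capitals.
ASNS, chr7:97872441-97872504, minus strand: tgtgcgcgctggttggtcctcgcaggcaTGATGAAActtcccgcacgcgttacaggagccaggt
CHAC1, chr15:40953234-40953297, plus strand: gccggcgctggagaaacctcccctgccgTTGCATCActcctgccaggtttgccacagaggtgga
ATF3, chr1:212565188-212565251, plus strand: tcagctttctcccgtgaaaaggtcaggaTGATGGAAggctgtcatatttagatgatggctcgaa

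Counted from a RefSeq start site, the match in ASNS, which had 2 promoter windows, began at base -68. The match in CHAC1 began at -209, where it lies on the opposite strand. That in ATF3 began at -191 from the outer of its 2 annotated start sites. The gene spans given below are from GENCODE, and by them the matches in ASNS and CHAC1 lie inside the gene. The match in ATF3 lies before the gene by its span. None of these matches overlapped another of the motifs searched. The cyclic AMP response element TGACGTCA was found in windows of 0 of the 10 genes and of 2.25% of all genes, and the endoplasmic reticulum stress element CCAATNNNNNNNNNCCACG in 0 of the 10 and 0.0916% of all. A match is a run of letters and not a site of measured binding, and the windows of the other genes say nothing about elements farther away.

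All 10 genes had at least 10 counts in every library. Their counts made up 0.0859% of the reads counted on genes in the control library (11300766 reads), 0.119% with Rg3 (12861693 reads) and 0.132% with TAM (11321442 reads). A count of 0 would allow up to 3 counts of these totals. The libraries were scaled with edgeR's TMM factors, and a gene was called higher at a fold over 1.5 and lower at a fold under 0.67, the fold limits of the study, provided that 10 or more reads were counted on it in either of the compared libraries. The 95% intervals are exact and cover counting error only. Relative to division by library totals, TMM scaling moves every log2 fold change by -0.14 with Rg3 and by 0.21 with TAM. Epithelial markers were present: KRT8, KRT18, KRT19, KRT7, EPCAM and CDH1 were each counted at least 10 times in the control and Rg3 libraries, while in the TAM library EPCAM had 8 counts and CDH1 had 5. VIM, a mesenchymal marker, had 55276 counts in the control library, with CDH2 at 626 and ZEB1 at 127. The 4 acinar and 3 endocrine markers searched were at 0 in each library. Of the fibroblast markers, COL1A1 had 1853 counts in the control library, COL3A1 had 214 and DCN had 1. Of the immune markers, CD68 had 615 counts in that library, and PTPRC and CD3E had 0. The endothelial markers PECAM1 and VWF had 1 count each there, and CDH5 had 0.

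**Figure D1:**
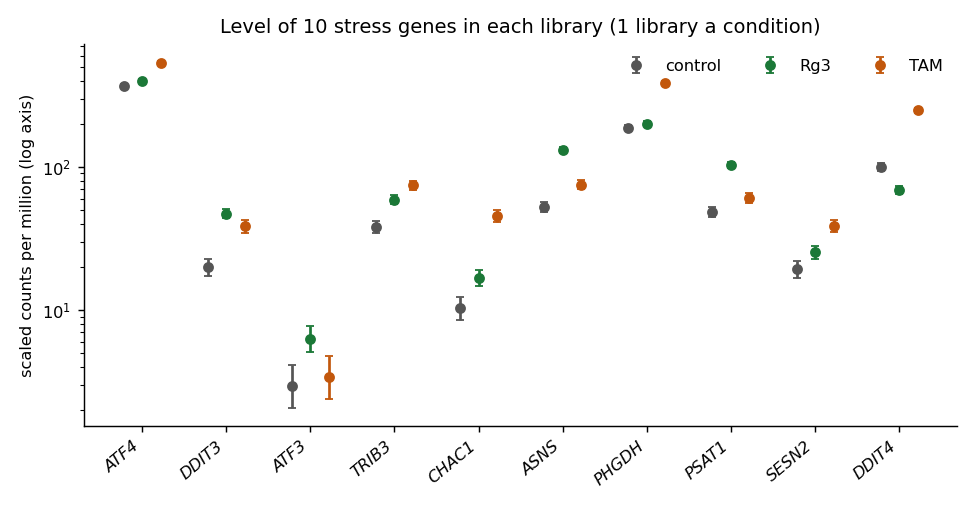
Scaled counts (CPM, log axis) of the 10 genes in the control, Rg3 and TAM libraries; points are single libraries and bars are exact 95% counting intervals. ASNS, PSAT1, DDIT3 and ATF3 are highest with Rg3, and the other 6 genes, with CHAC1 and DDIT4 the farthest from control, are highest with TAM.

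With Rg3, 6 of the 10 genes were called higher (DDIT3, ATF3, TRIB3, CHAC1, ASNS and PSAT1) and 0 lower, while 25.0% of the 16487 genes compared were called higher and 19.5% lower. The median log2 fold change was 0.67 over the 10 genes, with single values from -0.53 to 1.32, and 0.04 over all genes compared. With TAM, 6 of the 10 were called higher (DDIT3, TRIB3, CHAC1, PHGDH, SESN2 and DDIT4) and 0 lower, beside 17.4% higher and 23.8% lower among 16079 genes. The median was 0.96, with values from 0.21 to 2.15, and -0.02 over all genes. The 2 comparisons share the control library, so that a low control value of a gene moves both of its fold changes. In bulk RNA, a change in every cell and a change in part of the cells cannot be told apart.

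**Figure D2:**
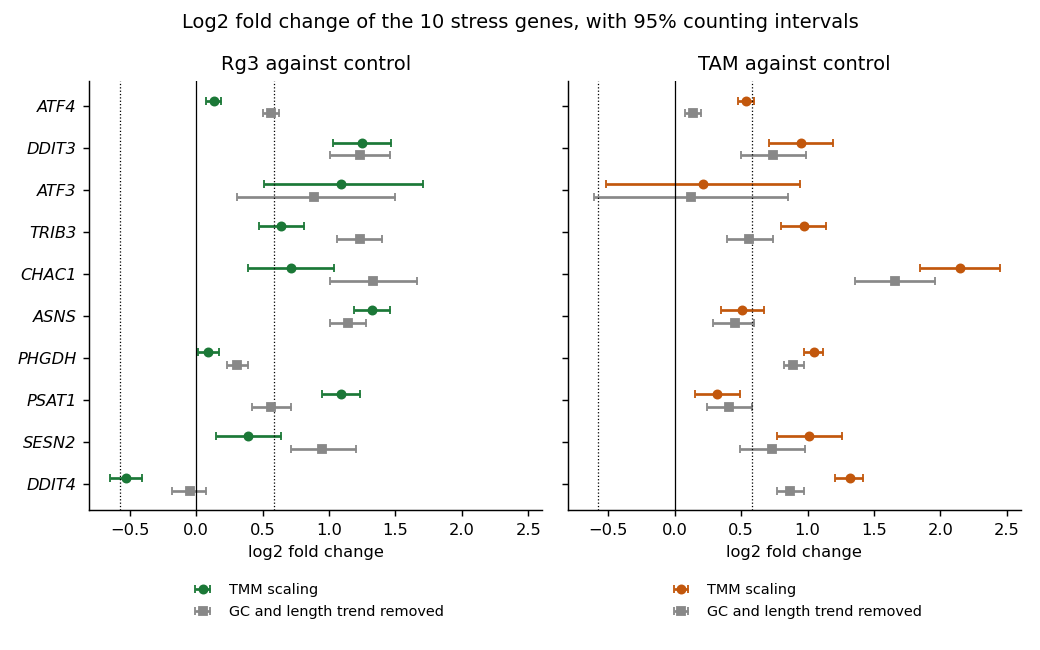
Log2 fold change of each gene against control, with Rg3 on the left and TAM on the right; coloured points use TMM scaling, grey squares are corrected for GC content and transcript length, bars are 95% counting intervals and dotted lines mark folds of 1.5 and 0.67. With Rg3, removal of the trend moves SESN2 to 0.95 and PSAT1 to 0.56; with TAM, CHAC1 stays above the 1.5-fold line at 1.66.

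ATF4, the factor at the centre of the response, lies at chr22:39519695-39522685 on the plus strand (GRCh38, GENCODE 29). It was the most abundant of the 10 transcripts, with 4200 counts in control cells, 5755 after Rg3 and 5299 after TAM. After scaling these were 366, 400 and 532 CPM (counts scaled to a common library size, as in the plot of levels), so that both treated libraries were above control by less than 1.5-fold. The log2 fold change was 0.13 with Rg3 (95% interval 0.07 to 0.19) and 0.54 with TAM (0.48 to 0.60). Neither was called. Of the 50-base stretches of the ATF4 transcript, 22.89% recur in another gene, mainly ATF4P3. The 4 processed copies of ATF4 in the table held reads equal to 7.57% of those of ATF4 in control cells, 8.03% after Rg3 and 7.70% after TAM. With these reads added, the log2 fold changes were also 0.13 and 0.54.

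DDIT3, which encodes CHOP, a factor of stress-induced cell death, lies at chr12:57516588-57521737 on the minus strand. It had 228 counts in control cells, 680 after Rg3 and 382 after TAM, or 19.9, 47.2 and 38.4 scaled CPM. Both treated libraries were above control, and the intervals of the treated libraries did not reach that of control. The fold was 2.38 with Rg3 (2.04 to 2.78), higher than the change of 95.7% of the genes compared, and 1.93 with TAM (1.64 to 2.29), higher than 93.9%. Exons of DDIT3 overlap those of AC022506.1 on the same strand, and 5.5% of the 50-base stretches of DDIT3 recur in another gene, mainly AC022506.1. They also overlap exons of MARS and MBD6 on the opposite strand, and the use of strand in counting is not given in the sources used here. MARS, with 4725 counts in the control library, had log2 fold changes of -0.11 with Rg3 and 0.33 with TAM, and MBD6, with 369 counts, had -0.47 and 0.31.

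ATF3, a stress-induced repressor and activator of the same factor class, lies at chr1:212565334-212620777 on the plus strand. It was the rarest of the 10, with 34 counts in control cells, 91 after Rg3 and 34 after TAM. The Rg3 library stood alone above control, at a fold of 2.13 (1.42 to 3.26). With TAM the fold was 1.15 (0.696 to 1.91), and with library totals the log2 fold change was 0.00. Folds of ATF3 with TAM inside this interval, among them no change, could not be told apart at this depth.

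TRIB3, a pseudokinase that restrains ATF4 and CHOP as a feedback inhibitor, lies at chr20:362835-397559 on the plus strand. Its counts were 437 in control cells, 852 after Rg3 and 742 after TAM, or 38.1, 59.2 and 74.6 scaled CPM. Both treated libraries were above control, the Rg3 library just beyond the limit at 1.55-fold (1.38 to 1.75) and the TAM library at 1.96-fold (1.74 to 2.21). CHAC1, an enzyme that degrades glutathione and is induced by ATF4, CHOP and ATF3, lies at chr15:40952962-40956519 on the plus strand. It was counted 118 times in control cells, 242 times after Rg3 and 453 times after TAM. CHAC1 had the largest change of the 10 genes with TAM, 4.43-fold (3.61 to 5.47), above 99.3% of the genes compared, and was 1.64-fold higher with Rg3 (1.31 to 2.06). The interval of CHAC1 with TAM lay wholly above the interval with Rg3. CHAC1 is also the gene with the highest GC content of the 10, at 62.6%.

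ASNS, PHGDH and PSAT1 are amino acid enzymes under ATF4. ASNS, which makes asparagine, lies at chr7:97852118-97872542 on the minus strand. ASNS had 607 counts in control cells, 1906 after Rg3 and 749 after TAM. It was the largest change of the 10 with Rg3, at 2.50-fold (2.28 to 2.75), above 96.7% of the genes compared, while with TAM it was 1.42-fold (1.28 to 1.59) and was not called. In GENCODE 29, 82.01% of the 50-base stretches of ASNS recur in another gene, mainly AC079781.5, a gene on the same strand whose exons overlap it. The count table has no gene under the name AC079781.5, so that reads of the 2 annotations cannot be separated.

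PHGDH and PSAT1 encode successive enzymes of serine synthesis, at chr1:119648411-119744226 and chr9:78297143-78330093, both on the plus strand. PHGDH had 2158 counts in control cells, 2882 after Rg3 and 3862 after TAM. PSAT1 had 558 counts in control cells, 1488 after Rg3 and 605 after TAM. The enzymes differed in which agent they were higher with: PSAT1 was 2.13-fold higher with Rg3 (1.93 to 2.35) and 1.25-fold with TAM (1.11 to 1.41), and PHGDH was 1.06-fold with Rg3 (1.01 to 1.13) and 2.06-fold higher with TAM (1.96 to 2.18). Corrected for GC content and transcript length, PSAT1 had log2 fold changes of 0.56 with Rg3 and 0.41 with TAM, and PHGDH had 0.31 and 0.89. PSPH, the last enzyme of the pathway, had 834, 1004 and 816 counts and log2 fold changes of -0.06 with Rg3 and 0.17 with TAM. The 3 processed copies of PSAT1 with reads held 3.80% to 4.77% as many reads as PSAT1 in any library, and with them added its log2 fold changes were 1.09 and 0.31.

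SESN2 and DDIT4 encode inhibitors of the growth kinase mTORC1. SESN2, a leucine sensor, lies at chr1:28259527-28282491 on the plus strand and had 221 counts in control cells, 364 after Rg3 and 386 after TAM. It was 1.31-fold with Rg3 (1.11 to 1.56) and was called higher with TAM at 2.01-fold (1.70 to 2.39). DDIT4, also known as REDD1 and induced by glucocorticoids and hypoxia as well, lies at chr10:72273920-72276036 on the plus strand. DDIT4 had 1144 counts in control cells, 994 after Rg3 and 2468 after TAM. It was the only one of the 10 genes below control with Rg3, at 0.693-fold (0.636 to 0.755), which did not pass the limit, and it was called higher with TAM at 2.49-fold (2.32 to 2.67). Exons of DDIT4 overlap DDIT4-AS1 on the opposite strand.

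The base composition of the transcripts moved with these changes. Over genes with 50 or more counts, transcripts rich in GC had the lower log2 fold changes after Rg3 (Spearman's rho -0.81, 11693 genes) and the higher ones after TAM (rho 0.50, 11118 genes). Long transcripts had the lower values after TAM (rho -0.45). Genes are not independent replicates, and these values describe the libraries. The part of composition in the changes of single genes was not tested. All 10 transcripts were shorter than the median of 3524 bases, and 7 of the 10 had more GC than the median of 48.4%. The 4 genes with the largest changes with Rg3, ASNS, DDIT3, PSAT1 and ATF3, were those with the least GC, between 42.3% and 49.7%.

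**Figure D3:**
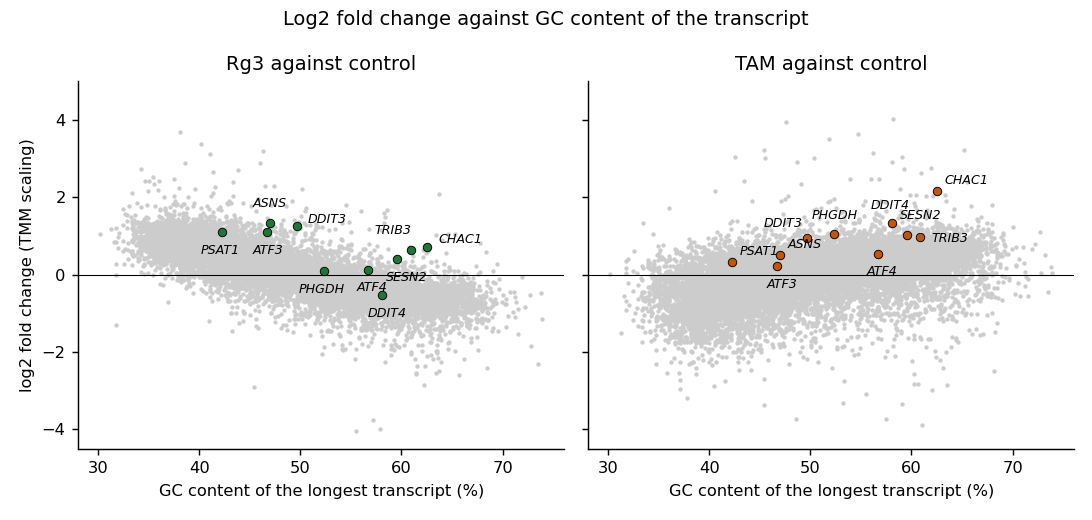
Log2 fold change (TMM scaling) against the GC content of the longest GENCODE 29 transcript, with Rg3 on the left and TAM on the right; grey points are genes with 50 counts or more in either of the libraries and coloured points are the 10 stress genes. The cloud descends with GC in the Rg3 library and ascends in the TAM library; CHAC1, at 62.6% GC, lies above the cloud around it in both.

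When a smooth trend on GC content and length (the composition trend) was removed, 5 of the 10 genes moved nearer to no change with Rg3 and 5 farther from it, and with TAM 9 moved nearer and 1, PSAT1, farther (from 0.32 to 0.41). The median of the 10 was then 0.92 with Rg3, beside 0.00 over all genes, and 0.65 with TAM, beside 0.01. With Rg3, 6 of the 10 were called higher, DDIT3 (1.23), TRIB3 (1.23), CHAC1 (1.33), ASNS (1.14), SESN2 (0.95) and ATF3 (0.89), and 0 lower, where 8.45% of all genes were called higher and 10.7% lower. PSAT1, at 42.3% GC, went to 0.56 and SESN2, at 59.5% GC, came in. With TAM, 5 of the 10 were called higher, CHAC1 (1.66), PHGDH (0.89), DDIT4 (0.87), DDIT3 (0.74) and SESN2 (0.73), and 0 lower, where 13.2% of all genes were called higher and 16.3% lower, and TRIB3 went to 0.56. ATF4 stayed under 1.5-fold, at 0.56 with Rg3 and 0.14 with TAM, and DDIT4 with Rg3 was at -0.05.

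The TAM library was also set directly against the Rg3 library. Of the 10 genes, 4 were called higher with TAM (CHAC1, PHGDH, SESN2 and DDIT4) and 3 lower (ASNS, PSAT1 and ATF3), while 30.0% of 16493 genes were called higher and 35.4% lower. DDIT4 was 3.59-fold higher with TAM than with Rg3 (3.34 to 3.87), CHAC1 2.71-fold (2.31 to 3.18) and PHGDH 1.94-fold (1.85 to 2.04). ATF3 was at 0.541-fold (0.353 to 0.810), ASNS at 0.569-fold (0.522 to 0.619) and PSAT1 at 0.588-fold (0.534 to 0.647). With the composition trend removed, 2 were called higher, DDIT4 (0.92) and PHGDH (0.59), and 3 lower, TRIB3 (-0.67), ASNS (-0.68) and ATF3 (-0.75), where 19.4% of all genes were called higher and 19.4% lower. CHAC1 was then at 0.32 and PSAT1 at -0.14. The sign changed for 3 of the 10, SESN2 from 0.62 to -0.23, ATF4 from 0.41 to -0.42 and TRIB3 from 0.33 to -0.67. With library totals TRIB3 was at -0.02, and 3 of the 10 were called higher and 4 lower beside 18.8% and 45.5% of all genes, as SESN2 (0.27) was no longer called and DDIT3 (-0.65) was called lower.

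Ratios of reads between genes of a single library do not depend on the scaling but do depend on composition where the GC content of the genes differs, and 8 pairs, chosen after their values were seen, are given as shares. DDIT3 made up 5.15% of the reads of DDIT3 and ATF4 in the control library (exact 95% interval 4.52 to 5.84), 10.6% with Rg3 (9.83 to 11.3) and 6.72% with TAM (6.09 to 7.41). ASNS made up 12.6% of the reads of ASNS and ATF4 in control cells, 24.9% after Rg3 and 12.4% after TAM, with overlapping intervals for the control and TAM libraries and a higher one for Rg3. ATF3 made up 0.803% of the reads of ATF3 and ATF4 in control cells, 1.56% after Rg3 and 0.638% after TAM, with the Rg3 interval (1.26 to 1.91) above the others. ATF4 has 56.7% GC, DDIT3 49.7%, ASNS 47.0% and ATF3 46.7%. Against control, the log2 ratio to ATF4 with Rg3 was 1.12 for DDIT3, 1.20 for ASNS and 0.97 for ATF3, and with the composition trend removed it was 0.67, 0.58 and 0.33. With TAM the ratio of ASNS to ATF4 went from -0.03 to 0.31 and that of ATF3 from -0.34 to -0.02.

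Pairs of related function were set against each other in the same way. PSAT1 made up 20.5% of the reads of PSAT1 and PHGDH in the control library (19.0 to 22.1), 34.1% with Rg3 (32.6 to 35.5) and 13.5% with TAM (12.6 to 14.6). PSAT1 has 42.3% GC and PHGDH 52.3%, and with the trend removed the log2 ratio of the pair against control fell from 1.00 to 0.26 with Rg3 and went from -0.72 to -0.48 with TAM. CHAC1 made up 21.3% of the reads of CHAC1 and TRIB3 in control cells, 22.1% after Rg3 and 37.9% after TAM (35.1 to 40.7). CHAC1 and DDIT3 gave 34.1% in control cells, 26.2% after Rg3 and 54.3% after TAM for CHAC1. The control and Rg3 libraries were thus within counting error of each other for CHAC1 and TRIB3, while the TAM library was apart in both pairs with CHAC1. With the trend removed, the log2 ratio of CHAC1 to DDIT3 against control went from -0.54 to 0.10 with Rg3 and from 1.20 to 0.92 with TAM, and that of CHAC1 to TRIB3, which are close in GC content, from 0.07 to 0.11 and from 1.18 to 1.10.

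Of the mTORC1 inhibitors, DDIT4 made up 83.8% of the reads of DDIT4 and SESN2 in the control library (81.7 to 85.7), 73.2% with Rg3 (70.8 to 75.5) and 86.5% with TAM (85.2 to 87.7), where the control and TAM intervals overlap. Against ASNS, DDIT4 made up 65.3% in control cells, 34.3% after Rg3 and 76.7% after TAM. With the trend removed, the log2 ratio of DDIT4 to ASNS against control went from -1.85 to -1.20 with Rg3 and from 0.81 to 0.42 with TAM, and that of DDIT4 to SESN2 from -0.92 to -1.01 and from 0.30 to 0.13.

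**Figure D4:**
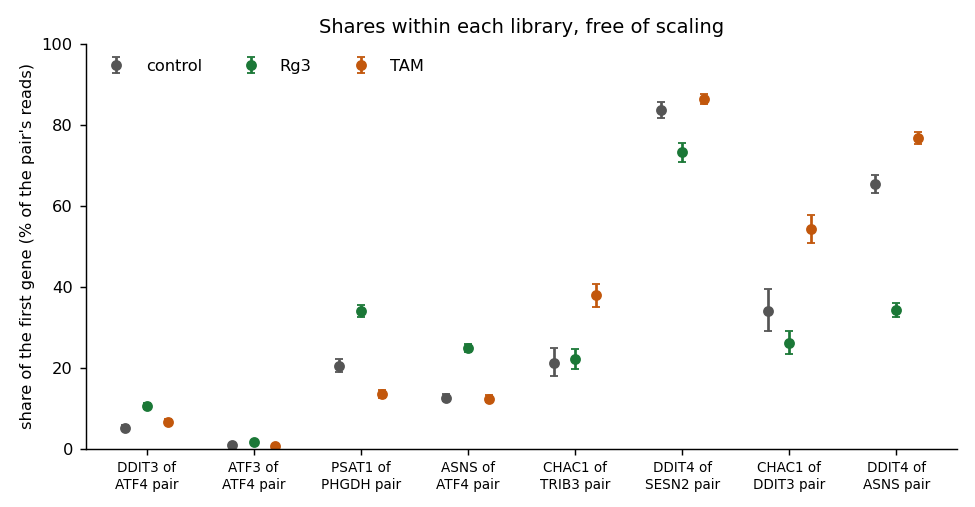
Share of the first-named gene in the reads of a pair of stress genes, in percent, within each library; points are single libraries and bars are exact 95% binomial intervals. The Rg3 library stands apart for ASNS with ATF4 (24.9%) and the TAM library for CHAC1 with TRIB3 (37.9%), while DDIT4 with ASNS spreads from 34.3% to 76.7%.

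Levels can be compared between genes only per length of transcript, here as scaled CPM per 1000 bases of the longest GENCODE transcript, which is an approximation where shorter isoforms are used. In the control library the order was ATF4 (181), PHGDH (59.1), DDIT4 (57.0), ASNS (22.4), PSAT1 (22.2), DDIT3 (18.6), TRIB3 (15.2), SESN2 (5.57), CHAC1 (5.56) and ATF3 (1.41). The neighbours PHGDH and DDIT4, ASNS and PSAT1, PSAT1 and DDIT3, DDIT3 and TRIB3, and SESN2 and CHAC1 had overlapping counting intervals. With Rg3 the order was ATF4 (198), PHGDH (62.9), ASNS (56.2), PSAT1 (47.2), DDIT3 (44.3), DDIT4 (39.5), TRIB3 (23.7), CHAC1 (9.09), SESN2 (7.32) and ATF3 (3.01), so that DDIT4 went from the third place to the sixth. In this order PSAT1 and DDIT3, DDIT3 and DDIT4, and CHAC1 and SESN2 had overlapping intervals. With TAM it was ATF4 (264), DDIT4 (142), PHGDH (122), DDIT3 (36.0), ASNS (31.9), TRIB3 (29.8), PSAT1 (27.8), CHAC1 (24.6), SESN2 (11.2) and ATF3 (1.62). There DDIT3 and ASNS, ASNS and TRIB3, TRIB3 and PSAT1, and PSAT1 and CHAC1 overlapped. ATF4 came before the others in each library and ATF3 after them. The orders were not corrected for GC content. With the composition trend removed, the log2 fold changes with Rg3 were -0.05 for DDIT4, 1.14 for ASNS, 0.56 for PSAT1 and 1.23 for DDIT3.

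Lists of other genes of the pathway were used to describe its surroundings. Their counts stand beside 25.0% of all genes called higher and 19.5% lower with Rg3, and 17.4% and 23.8% with TAM. With the composition trend removed these shares were 8.45% and 10.7% with Rg3, and 13.2% and 16.3% with TAM. Many of the lists are small and have shares near those of all genes, so that the counts are given as a description. Upstream, the kinases of eIF2 and the mitochondrial relay that feeds them (6 genes) had 2 genes called higher with Rg3 and 0 lower, while with TAM 0 were higher and 2 lower, with medians of 0.52 and -0.52. EIF2AK3, the kinase PERK of the endoplasmic reticulum, was highest with Rg3 at 1.22, from 110 to 321 counts, and KIAA0141, which encodes the relay protein DELE1, lowest at -0.26. With TAM, OMA1, a mitochondrial protease, was highest at 0.18 and EIF2AK2, the kinase PKR, lowest at -1.25, from 239 to 87 counts. EIF2AK3 has 44.4% GC and EIF2AK2 38.7%, and with the trend removed EIF2AK3 was at 0.83 with Rg3 and EIF2AK2 at -0.35 with TAM. Both calls lower with TAM were lost (the other was EIF2AK4, from -0.85 to -0.52), which left 0 of the 5 genes with a GC value called with TAM and 2 higher with Rg3. Among the 10 subunits of eIF2, eIF2B and the eIF2 phosphatases, 3 were higher and 0 lower with Rg3, led by EIF2S2 (1.00) with EIF2B4 lowest (-0.37), and 2 were higher and 1 lower with TAM, between EIF2B2 (0.88) and PPP1R15B (-0.84), which keeps the phosphatase active without stress. Their medians were 0.28 and 0.24. After removal of the trend, Rg3 had 2 higher and 1 lower, and TAM had 3 and 0.

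Of the 8 bZIP partners and coregulators of ATF4, 0 were called higher with Rg3 and 1 lower (BATF3, -0.91, from 111 to 74 counts), and CEBPG, a dimer partner of ATF4, was highest at 0.56. With TAM 2 of the 8 were higher and 0 lower. Among those with at least 50 counts, ATF5, a relative of ATF4, was highest at 0.78 and CEBPG lowest at 0.03. Below that minimum, CEBPD was at -0.43, from 31 to 20 counts, and CEBPA at -0.28, from 14 to 10 counts. The medians were 0.01 and 0.31. Once the trend was removed, 2 were higher with Rg3, CEBPA (0.84) and CEBPB (0.76), and 1 lower, with a median of 0.36. CEBPA had 14 counts in the control library and 19 with Rg3. Before removal of the trend CEBPA was at 0.11 with Rg3 (-0.96 to 1.22) and CEBPB at 0.04 (-0.15 to 0.23). With TAM 2 were then higher, NUPR1 (0.73) and BATF3 (0.66), and 2 lower, CEBPA (-0.69) and CEBPD (-0.86). Of 6 genes of cell death and secretion downstream of CHOP, 1 was called higher and 0 lower with Rg3, ERO1L (1.00, from 357 to 897 counts), an oxidase of the endoplasmic reticulum, with BBC3 lowest at -0.37. With TAM 0 were higher and 1 lower, BCL2L11 (-0.89, from 111 to 52 counts), a proapoptotic BCL2 relative, and PPP1R15A (GADD34), which ends the response by dephosphorylating eIF2, was highest at 0.49. Their medians were 0.14 and -0.02. Of the 5 with a GC value, 1 was higher with Rg3 once the trend was removed, PPP1R15A (0.60), and 1 lower with TAM, BBC3 (-0.62). BCL2L11 was then at -0.52 with TAM and no longer called, and ERO1L has no GC value. Before removal of the trend PPP1R15A was at 0.07 with Rg3 (-0.11 to 0.26). BBC3 was at -0.14 with TAM (-0.70 to 0.41), from 65 to 51 counts.

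Among 13 further enzymes of serine, one-carbon and proline synthesis, 3 were called higher and 1 lower with each agent, with medians of -0.24 with Rg3 and 0.35 with TAM. MTHFD2, a mitochondrial folate enzyme, was highest with Rg3 (0.81, from 1881 to 4141 counts) among those with at least 50 counts, and PYCR1, of proline synthesis, was lowest with Rg3 (-0.80) and highest with TAM (0.99, from 3030 to 5215 counts). ALDH18A1 was lowest with TAM at -0.28 by the same minimum, while the call lower with TAM was ALDH1L2, from 13 to 5 counts. PYCR1 has 61.8% GC and MTHFD2 41.4%, and with the trend removed these values were 0.20 for MTHFD2 and -0.20 for PYCR1 with Rg3, and 0.51 for PYCR1 with TAM. The list then had 2 genes called higher and 0 lower with Rg3, and 0 called with TAM. Of 8 amino acid transporters, 2 were higher and 1 lower with Rg3, from SLC7A11 (2.53, from 43 to 312 counts), the cystine carrier, to SLC6A9 (-1.34), a glycine carrier. With TAM 4 were higher and 0 lower, from SLC6A9 (1.43, from 143 to 334 counts) to SLC38A2 (-0.40) among those with at least 50 counts. SLC7A11, below that minimum in this comparison, was at -0.47 with TAM (-1.22 to 0.26), from 43 to 27 counts. The transporter medians were -0.15 and 0.50. With the trend removed, SLC7A11 (35.4% GC) was at 1.61 and SLC6A9 at -0.78 with Rg3, which were the calls that stayed, 1 higher and 1 lower, and SLC38A2 went from 1.06 to 0.25. With TAM 2 were then higher, SLC6A9 and SLC1A4 (both 1.11), and 0 lower.

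Of 7 secreted and surface proteins under ATF4, 4 could be compared. With Rg3 VLDLR was highest (0.88) and STC2, a secreted glycoprotein, lowest (-0.37) among those with at least 50 counts, and 1 was called higher and 1 lower, ADM2, from 38 to 26 counts. With TAM 1 was higher and 0 lower, STC2, at 1.36 from 3304 to 7351 counts, and VLDLR was lowest at -0.34. The medians were -0.14 and 0.21. Removal of the trend gave 1 higher and 0 lower with each agent. With Rg3 the gene called was GDF15, which went from 0.09 to 0.69, while VLDLR (0.39) and ADM2 were no longer called. With TAM it was again STC2. Of 8 aminoacyl-tRNA synthetases and tRNA export genes, 4 were higher and 0 lower with Rg3, from XPOT (1.02) to AARS (-0.42), and 0 were higher and 1 lower with TAM, from SARS (0.38) to EPRS (-0.66). Their medians were 0.41 and 0.11. With the trend removed, 1 was higher with Rg3, GARS (0.81), while XPOT (0.39), EPRS (0.36) and NARS (0.41) were no longer called, and 0 were lower with Rg3 or called with TAM.

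Close relatives of the 10 genes were counted as well. With Rg3, 3 of 5 compared were higher and 1 lower, with SESN1, another sestrin, highest (1.25, from 53 to 158 counts) and TRIB2 lowest (-0.78) at 50 counts or more. With TAM, 2 of 4 were higher and 1 lower, from EIF4EBP1, a translation inhibitor (0.86), to SESN1 (-0.66). The medians were 0.77 and 0.23. After removal of the trend, Rg3 had 2 higher and 1 lower, and TAM had 1 and 0. Of 12 genes of the ATF6 and IRE1 arms of the unfolded protein response, 3 were higher and 0 lower with Rg3, from DNAJB9 (1.39, from 24 to 79 counts) to CRELD2 (-0.48), with a median of 0.32. With TAM 1 was higher, XBP1 (0.81), and 3 were lower, led by DNAJC3 (-1.15, from 195 to 76 counts), with a median of 0.12. With the trend removed, 1 of the 12 was higher with Rg3, DNAJB9 (0.73), and 0 lower. With TAM 2 were then higher, XBP1 (0.92) and DNAJB9 (0.61), and 1 lower, HSP90B1 (-0.80), while DNAJC3 went to -0.52. DNAJB9 had 24 counts in the control library and 27 with TAM, and before removal of the trend it was at 0.38 with TAM (-0.47 to 1.23). The median of the 10 stress genes was higher than that of each of these other lists with TAM, and with Rg3 it was higher than that of each but the close relatives. The 10 genes and the lists were chosen with earlier results of these data known, so the order of their medians is a description and not a test. Division by library totals lowers each TAM median by the same 0.21, which turns those of the synthetases and of the ATF6 and IRE1 arm genes negative. With the composition trend removed, the medians of the serine and proline enzymes (0.15), the transporters (0.21), the secreted and surface proteins (0.09) and the eIF2 subunits (-0.01) took the other sign with Rg3. The highest median of these other lists was then 0.42 with Rg3, for the genes downstream of CHOP, and 0.48 with TAM, for the transporters, beside 0.92 and 0.65 for the 10 stress genes.

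**Figure D5:**
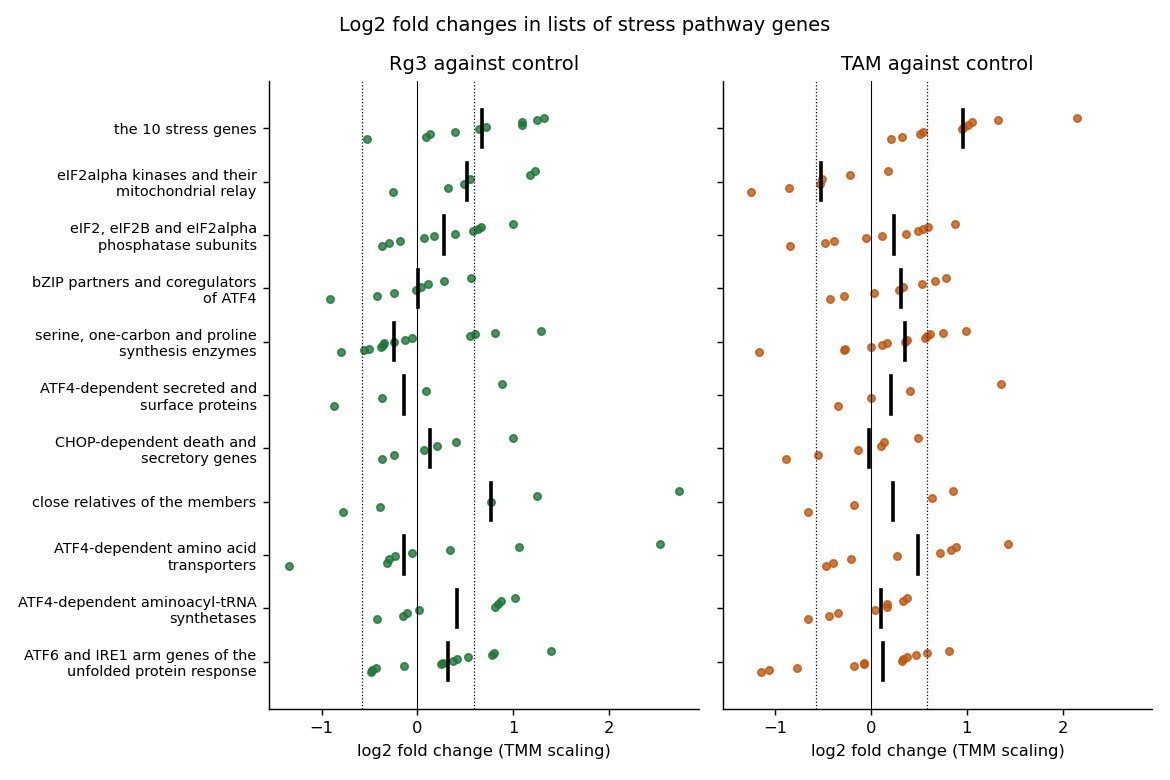
Log2 fold changes (TMM scaling) with Rg3 on the left and TAM on the right for the 10 stress genes and 10 lists of related genes; points are genes, black bars are list medians and dotted lines mark folds of 1.5 and 0.67. The 10 stress genes have medians of 0.67 and 0.96; the rightmost relative with Rg3 is SESN3, which had 1 count in the control library and was drawn against a floor of 3 counts.

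Genes with nearly the same pair of changes against control were looked up among 8424 others with at least 100 counts in each library, by the distance between the pairs of log2 fold changes. Nearest to ATF4 were UBE2SP2, TANGO6, KIAA0513, OST4 and LINC00339, at distances from 0.0154 to 0.0334. Nearest to DDIT3 were RPL21P119 (0.0977), NEU1 (0.113), FLJ44635 (0.203), C12orf29 (0.277) and RPS20P11 (0.298). NEU1, a lysosomal sialidase, had 531 counts in control cells, 1574 after Rg3 and 823 after TAM. UBE2SP2, RPL21P119 and RPS20P11 are named as pseudogenes, whose reads can come from their parent genes. The likeness rests on 3 libraries and so on 2 values a gene, and the distances were smaller around ATF4 than around DDIT3.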

How the data were processed

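Total RNA of PANC-1 cells was sequenced by Ion Proton in 3 libraries, 1 each of control, Rg3 and TAM. Per the methods, the authors used FAST-QC, TopHat and MAQ, and per the labels the build was GRCh38. The deposited values are raw read counts per gene symbol. The counting tool, annotation and strand setting are not given in the sources used here. Counts, totals from 11300766 to 12861693, were scaled with TMM factors (edgeR 4.0.16, R 4.3.3) of 1.02, 1.12 and 0.879. A floor of 3 counts was used for folds, and intervals are exact (Clopper-Pearson for folds and shares, Poisson for levels, 95%). The Limma criteria of the study need replicates, so the fold limits alone made calls and no p-value was computed. Alternatives were library totals, DESeq2 1.42.0 size factors, other count minimums, a stricter fold, the fold with an interval, and removal of a loess trend (span 0.3, fitted at 50 counts or more) on GC content and length of the longest GENCODE 29 transcript, found for 88.0% and 88.5% of the genes compared with Rg3 and TAM. Shared sequence was judged by 50-base stretches. The steps were tested on simulated data. The 10 genes and all lists were chosen with earlier results of these data known. Named in the text were the 10 genes, the highest and lowest of each list with at least 50 counts, the 5 genes nearest to ATF4 and to DDIT3, and a few others for a stated reason, chosen after their values were seen. The other experiments of the study were not analysed here.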

Additional observations from a re-analysis of the deposited data

How the results depend on the processing

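No paired analysis was possible because there is 1 library for each condition, and for the same reason no library could be left out. With Rg3, 6 of the 10 genes were called higher and 0 lower under each scaling and with the composition trend (on GC content and length) removed, although the genes differed as given above. With TAM 6 were called higher under each scaling and 5 with the trend removed. Limits of 2-fold left 4 higher with each agent, beside 1470 of the 16487 genes compared with Rg3 and 862 of 16079 with TAM. In TAM against Rg3, the count of 4 higher went to 2 with the trend removed, where 19.4% of all genes were called higher. With limits of 2-fold it was 2 higher and 0 lower, beside 2781 higher and 3998 lower of 16493 genes. Between these libraries, 3 of the 10 genes changed sign with the trend removed, SESN2, which had been called, to -0.23, ATF4 to -0.42 and TRIB3 to -0.67, and TRIB3 also did with library totals (-0.02). Of 30 changes of single genes, 19 moved beyond their counting interval with library totals, 0 with DESeq2's size factors and 22 with the trend removed. Over all genes, removal of the trend gave 1226 higher and 1556 lower with Rg3, 2316 lower with TAM, and 2808 higher and 2815 lower in TAM against Rg3. Library totals gave 1576 higher with TAM and 3105 higher in TAM against Rg3. A minimum of 50 counts gave 2139 lower with Rg3 and 2529 lower with TAM. For Rg3, limits of 2-fold gave 1470 higher and 1149 lower. For TAM they gave 862 and 1824, and for TAM against Rg3 they gave 2781 higher and 3998 lower. The cause of these moves was not tested beyond the construction of each alternative. Depth limits ATF3 most, with 34 counts in the control library.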
